A study of Mus musculus with 38 samples.

Results

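Assays A04, A05, A07 and B01 are 4 of the 21 target assays of a qRT-PCR panel measured in the hearts of mice after myocardial ischemia and reperfusion. They were chosen by the measured values, for a difference between Myriocin-treated and untreated infarcted hearts that changed by less than 1 log2 unit between 24 and 96 h after surgery. The tissue came from 38 male C57BL/6N mice aged 8 to 10 weeks. LAD mice underwent occlusion of the left anterior descending coronary artery for 30 min and received empty solid lipid nanocarriers (SLN), while LAD + Myriocin mice underwent the same occlusion and received 20 μL of SLN loaded with Myriocin (SLN/myr) in the muscle of the left ventricle as reperfusion began. Sham mice underwent the surgery without ligation of the artery. At 24 h and again at 96 h there were 5 sham, 7 LAD and 7 LAD + Myriocin mice, each killed at 1 time, so that no mouse was followed from 24 to 96 h. RNA was taken from the area at risk of infarcted hearts and from the left ventricle of sham hearts, without separating cell types, so that fewer cells of a type and less RNA per cell cannot be told apart.

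Myriocin inhibits serine palmitoyltransferase, the enzyme that starts the synthesis of ceramide and other sphingolipids. The healthy adult heart draws most of its energy from the oxidation of fatty acids, and infarcted myocardium is known to move away from this fuel. Genes of this program include the nuclear receptors of the PPAR family and their co-activator PGC-1α, the fatty acid transporters of the plasma membrane, and the enzymes that bring fatty acids into mitochondria and oxidize them there. The panel covered genes of these kinds together with myosin heavy chains, which mark the state of the contractile apparatus. No source used here pairs the plate codes with gene names, and A04, A05, A07 and B01 are therefore described by code, with no gene, role or sequence assigned.

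For each mouse the threshold cycle (Ct) of the target was set beside a Ct of the reference assay B10, taken to be the endogenous control RPLI. A lower Ct stands for more transcript. Subtracting the target Ct from the reference Ct gave the relative expression, in log2 units where the product of the PCR is copied in full at each cycle, so that a less negative value stands for more transcript. The assays gave a value in 109 of 152 combinations of assay and mouse (71.7%), against 602 of 798 (75.4%) over the 21 target assays. A04 was read in 27 mice, A05 in 29, A07 in 27 and B01 in 26, with 3 to 7 mice in a group. Their median target Ct was 27.2 cycles for A04, 27.5 for A05, 30.3 for A07 and 32.1 for B01, the last being the latest median of the panel. None of their target readings came after cycle 35.

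Reference readings of these assays recurred to the last decimal under another sample number in another assay in 17 of 27 cases for A04, 10 of 29 for A05, 13 of 27 for A07 and 11 of 26 for B01. Whether 1 number follows 1 mouse through the panel is therefore not known. Assays were joined by number for the scale relative to the mean of all target assays and for the check of whether replicate numbers pair the mice. The counts of assays and the adjusted p-values with a single mouse left out also joined them by number. All of these rest on that uncertain link. Of the 4 assays, 0 shared a reference reading with each other. The reference Ct of A05 in sham mice at 24 h lay between 27.9 and 30.8 cycles, whereas in the other 20 assays the sham mice at 24 h lay between 22.9 and 27.5 cycles. Nothing in the labels separates these A05 readings from the rest.

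The values that chose the assays are given as a description, without a test. LAD + Myriocin mice exceeded LAD mice in A04 by 0.32 log2 units (1.25-fold) at 24 h and by 0.67 (1.59-fold) at 96 h, a change of 0.35. In A05 the difference was 0.60 (1.52-fold) at 24 h and 1.03 (2.05-fold) at 96 h, a change of 0.43. In B01 it was 0.47 (1.38-fold) at 24 h and 0.97 (1.96-fold) at 96 h, a change of 0.50. In A07 it was 0.053 (1.04-fold) at 24 h and 0.81 (1.75-fold) at 96 h, a change of 0.75. The difference of means was positive at both times in each of the 4 assays, and larger at 96 h than at 24 h in each, but in A07 the 24 h value turned to -0.012 without LAD replicate 2, to -0.0045 without LAD replicate 3 and to -0.034 without LAD + Myriocin replicate 5. The label of a time-stable effect thus stands only for a change under 1 log2 unit, not for an equal difference at both times. It describes A07 less closely than the others, since LAD + Myriocin and LAD mice were 0.053 log2 units apart at the first time.

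Single mice also moved the size of the A04 difference. With 1 mouse left out it ran from 0.15 (without LAD + Myriocin replicate 6) to 0.47 at 24 h, and from 0.35 (without LAD replicate 4) to 0.83 at 96 h. Its change between the times ran from 0.031, again without LAD replicate 4 of the 96 h mice, to 0.51. The change ran from 0.25 to 0.55 in A05, from 0.32 to 0.75 in B01 and from 0.53 to 0.88 in A07, so that it stayed under 1 log2 unit in each assay whichever mouse was left out.

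The limit of 1 log2 unit was also met by 4 assays outside this choice, which were A03 (change of -0.46), B05 (0.62), B04 (0.63) and A08 (0.96). A08 was the assay nearest inside the limit, and A01, with a change of -1.19, was the nearest outside it. The median difference of the 4 chosen assays was 0.39 at 24 h and 0.89 at 96 h, beside 0.19 and 1.54 over all 21 assays. At 96 h they ranked between 14 and 18 of 21 when the differences were ordered from the highest. LAD + Myriocin and LAD mice did not overlap in 0 of the 4 assays at 24 h and in 1 of the 4, A05, at 96 h, where the shares of the whole panel were 14.3% and 57.1%. The choice used these same values, so the counts carry no further weight.

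**Figure D1:**
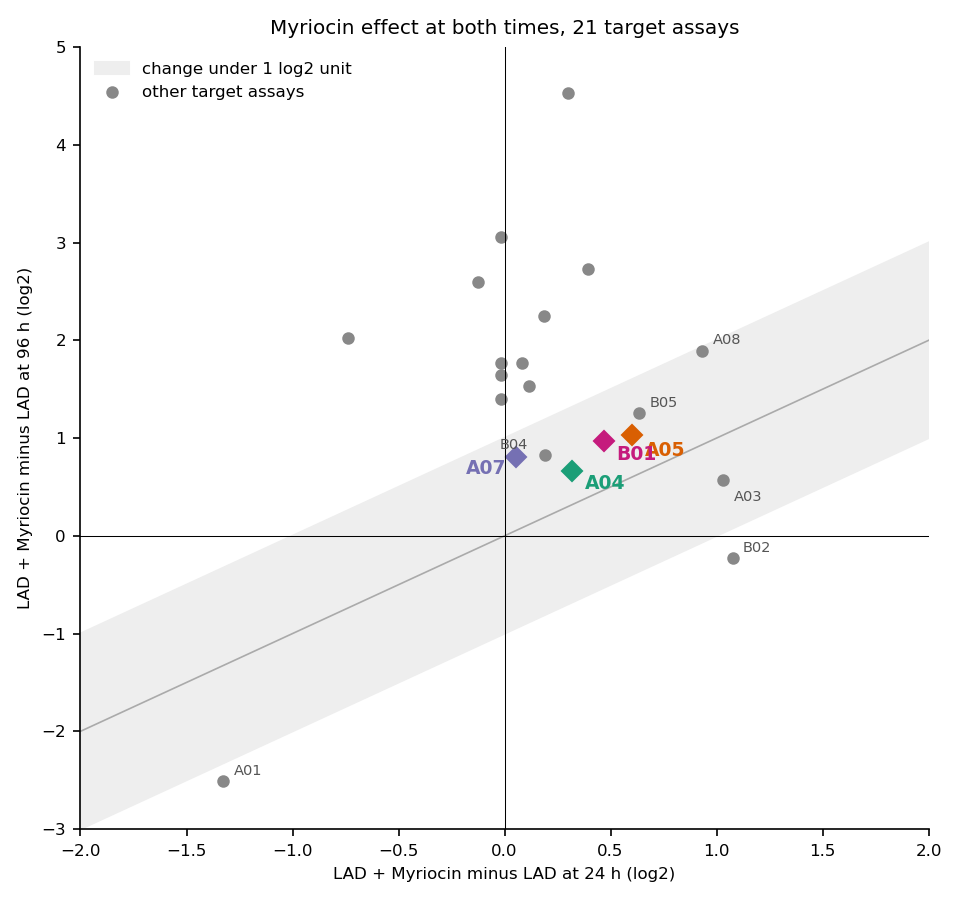
Difference in mean relative expression (log2) of LAD + Myriocin against LAD mice, at 24 h (x axis) and 96 h (y axis), for the 21 target assays, with A04, A05, A07 and B01 as coloured diamonds and the other assays as grey circles. The shaded band holds changes of less than 1 log2 unit, and A03, B04, B05 and A08 lie within it beside the 4 chosen assays, whose differences reach from 0.053 to 0.60 at the first time and from 0.67 to 1.03 at the second.

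The infarcted groups were then compared with sham mice. The sham mice took no part in the choice of the assays, but the LAD and LAD + Myriocin mice did, and the comparisons at a time share their sham mice. Each difference was put to an exact permutation test (two-sided) at an unadjusted p of 0.05, the threshold of the study, and intervals came from a limma model over all mice. Differences on raw target Ct, without the reference assay, have their sign turned throughout. A positive value there stands for an earlier target Ct in the group named first, not corrected for the reference Ct of the same reading.

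Of the 4 assays, A05 had the largest difference between LAD and sham mice at 96 h, and it was the only one of them past the test there. In sham mice at 96 h its relative expression was -0.59, -0.60 and -0.35, with a mean of -0.51 ± 0.14 (SD, n = 3). In the 6 LAD mice at 96 h it ran from -2.48 to -1.75 with a median of -1.98, and its mean was -2.07 ± 0.34 (SD, n = 6). Every LAD mouse lay below every sham mouse, by more than 1 log2 unit. The LAD mice were lower by a log2 difference of -1.56 (95% interval -2.14 to -0.97), which is 0.34 times the sham level (exact permutation test, p = 0.0238, the smallest p of this design, adjusted p = 0.0625). The limma model gave an adjusted p of 1.86e-05 for the same difference. Without the reference assay, on raw Ct, this A05 difference came to -0.18 cycles (exact permutation test, p = 0.786), and relative to the mean of all target assays it turned to 1.61 (exact permutation test, p = 0.0238). With sham mice of both times pooled it was -0.99 (exact permutation test, p = 0.000666). The pool mixes the times, and A05 in sham mice was higher at 96 h than at 24 h by 0.90.

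With the reference assay, the LAD + Myriocin mice held an intermediate position in A05 at 96 h. Their values were -1.51, -1.38, -0.45, -1.09 and -0.74, with a mean of -1.03 ± 0.44 (SD, n = 5). All of them lay above the highest LAD mouse, and 1 of them lay within the range of the sham mice. Against sham the difference was -0.52 (95% interval -1.13 to 0.082), which did not pass the test (exact permutation test, p = 0.143). It was 0.042 when sham mice of both times were pooled, and -2.22 on raw Ct (exact permutation test, p = 0.0357). Relative to the mean of all target assays it was -1.68 (exact permutation test, p = 0.143). LAD mice differed from sham mice by -0.18 on raw Ct and by 1.61 on the latter scale, so the treated mice were not intermediate on either. The reference Ct of LAD + Myriocin mice was later than that of sham mice by 1.70 cycles, and its part was not tested.

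At 24 h the A05 groups overlapped. Sham mice had values of -1.44, -1.44, -1.02, -1.62 and -1.54, LAD mice -1.81, -1.22, -1.997, -1.87 and -2.03, and LAD + Myriocin mice -0.81, -1.04, -0.85, -1.92 and -1.30. The means were -1.41 ± 0.23 (SD, n = 5) in sham, -1.79 ± 0.33 (SD, n = 5) in LAD and -1.18 ± 0.45 (SD, n = 5) in LAD + Myriocin mice. LAD mice were set apart from sham mice by -0.37 (95% interval -0.90 to 0.15; exact permutation test, p = 0.0714), and by -0.71 with sham mice of both times pooled (exact permutation test, p = 0.014). The pooled sham mice include those of 96 h, in which A05 was higher by 0.90, so -0.71 is not a difference at 24 h alone. LAD + Myriocin mice were set apart from sham mice by 0.23 (95% interval -0.29 to 0.75; exact permutation test, p = 0.341). On raw Ct the LAD + Myriocin difference was 3.38 cycles, and relative to the mean of all target assays 3.22, both past the test (exact permutation test, p = 0.00794 for each), and with sham mice of both times pooled it turned to -0.11.

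Single mice carried weight in these 24 h differences of A05. LAD replicate 4, at -1.22, stood apart from the other LAD mice, and without it the difference from sham was -0.52 (exact permutation test, p = 0.0159). LAD + Myriocin replicate 6, at -1.92, lay within the range of the LAD mice, and without it the difference from sham was 0.41 (exact permutation test, p = 0.0476). On raw Ct the difference between LAD and sham mice turned to 3.62 cycles (exact permutation test, p = 0.00794), in the direction of an earlier target Ct in LAD mice, and relative to the mean of all target assays it was 2.83. The reference Ct of LAD mice differed from that of the sham mice by -3.99 cycles in this assay, and its part in the result was not tested.

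The A05 level of sham mice themselves rose with time. It was higher at 96 h than at 24 h by 0.90 (95% interval 0.30 to 1.51), or 1.87-fold, with no overlap between the times (exact permutation test, p = 0.0357, the smallest p of this design, adjusted p = 0.24). From 24 to 96 h the reference Ct of these sham mice moved by -2.97 cycles and the target Ct by -3.87 cycles. Between the times, mean A05 expression of LAD mice changed by -0.28 and that of LAD + Myriocin mice by 0.15, values that the choice of the assays touches. The difference between LAD and sham mice moved down from 24 to 96 h, by -1.18 log2 units (limma, SE 0.385, 95% interval -1.97 to -0.40, adjusted p = 0.0133). On raw Ct this change was -3.80 cycles (limma, adjusted p = 0.00508). Relative to the mean of all target assays it was -1.22 and did not pass the test (limma, adjusted p = 0.871).

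**Figure D2:**
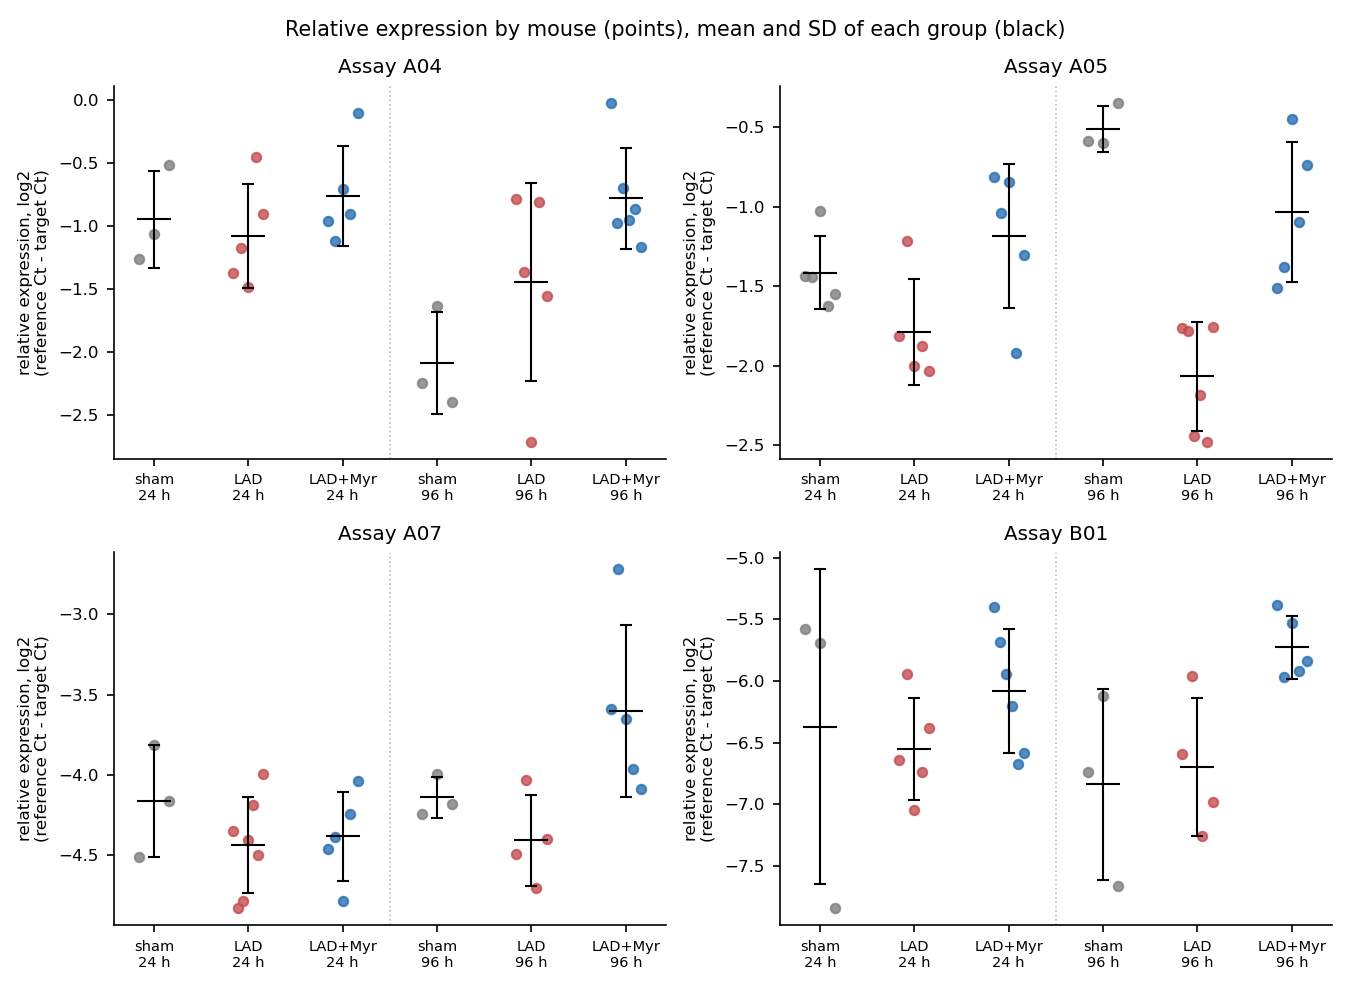
Relative expression (log2, reference Ct minus target Ct) of A04, A05, A07 and B01 in sham (grey), LAD (red) and LAD + Myriocin (blue) mice at 24 h (left of the dotted line) and 96 h (right of it). Points are mice and black marks are the mean with its SD. In A05 the 6 LAD mice at 96 h lie below all sham mice, and in A04 and B01 the LAD + Myriocin mice at 96 h lie above all sham mice of that time.

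In A04 the sham mice at 96 h had values of -2.24, -1.63 and -2.40, with a mean of -2.09 ± 0.41 (SD, n = 3). The 6 LAD + Myriocin mice at 96 h ran from -1.17 to -0.020 with a median of -0.91, and their mean was -0.78 ± 0.40 (SD, n = 6). All of them lay above all of the sham mice. The difference was 1.31 (95% interval 0.57 to 2.05), or 2.48-fold (exact permutation test, p = 0.0238, the smallest p of this design, adjusted p = 0.075). The limma model gave an adjusted p of 0.00575. The raw Ct differed by 0.31 cycles (exact permutation test, p = 0.857), and relative to the mean of all target assays it was 0.73 (exact permutation test, p = 0.405).

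LAD mice had A04 values at 96 h of -0.78, -1.36, -2.71, -0.81 and -1.55, with a mean of -1.44 ± 0.79 (SD, n = 5). They reached from below the sham range, with replicate 4, into the range of the treated mice. Against sham the difference was 0.65 (95% interval -0.12 to 1.41; exact permutation test, p = 0.286). It turned to -0.57 cycles on raw Ct, was 1.24 relative to the mean of all target assays, and was 0.074 with sham mice of both times pooled (exact permutation test, p = 0.892). Replicate 4 also had the earliest reference Ct of the A04 readings, 21.8 cycles, and replicate 2 the latest, 31.8 cycles.

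At 24 h the A04 groups were interleaved. Sham mice had values of -1.26, -1.06 and -0.52, LAD mice -1.37, -1.17, -1.48, -0.45 and -0.91, and LAD + Myriocin mice -0.96, -1.12, -0.70, -0.90 and -0.10. Their means were -0.95 ± 0.38 (SD, n = 3), -1.08 ± 0.41 (SD, n = 5) and -0.76 ± 0.40 (SD, n = 5). The difference from sham was -0.13 in LAD mice (95% interval -0.89 to 0.63; exact permutation test, p = 0.679) and 0.19 in LAD + Myriocin mice (95% interval -0.57 to 0.95; exact permutation test, p = 0.607). For LAD mice it turned on raw Ct to 1.42 cycles (exact permutation test, p = 0.0357) and to 0.64 relative to the mean of all target assays.

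The 96 h difference of A04 stood beside a low sham level at that time. Sham mice at 96 h all lay below sham mice at 24 h, by -1.14 in the mean (95% interval -1.997 to -0.29), and 3 mice against 3 give no smaller exact p than the 0.1 found (exact permutation test). On raw Ct the sham difference turned to 0.46 cycles. LAD + Myriocin mice differed between the times by -0.021 and LAD mice by -0.37. When LAD + Myriocin mice at 96 h were set against the sham mice of both times together, the difference was 0.74 (exact permutation test, p = 0.0584).

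B01, the assay with the latest Ct, had the lowest relative expression of the 4. Sham mice at 96 h had values of -6.74, -6.12 and -7.66, with a mean of -6.84 ± 0.78 (SD, n = 3), and LAD + Myriocin mice -5.38, -5.97, -5.53, -5.92 and -5.83, with a mean of -5.73 ± 0.26 (SD, n = 5). All LAD + Myriocin mice lay above all sham mice, and the sham mice were the more widely spread. The difference was 1.11 (95% interval 0.21 to 2.01), or 2.16-fold (exact permutation test, p = 0.0357, the smallest p of this design, adjusted p = 0.075), and the limma model gave an adjusted p of 0.0627. Without sham replicate 3, the lowest at -7.66, the difference was 0.70, and the 2 sham mice left allow no exact p under 0.0952. On raw Ct it was 0.70 cycles (exact permutation test, p = 0.393), and relative to the mean of all target assays 0.71 (exact permutation test, p = 0.5). With sham mice of both times pooled it was 0.88 and no longer passed the test (exact permutation test, p = 0.0909).

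LAD mice had B01 values at 96 h of -6.59, -5.96, -7.26 and -6.99, with a mean of -6.70 ± 0.56 (SD, n = 4). They lay within the range of the sham mice except for replicate 3, at -5.96, which reached the range of the treated mice. Against sham the difference was 0.14 (95% interval -0.80 to 1.08; exact permutation test, p = 0.8, smallest possible p = 0.0571), and it turned to -0.96 cycles on raw Ct, to -0.093 with sham mice of both times, and to -0.10 without LAD replicate 3.

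At 24 h sham mice had B01 values of -5.58, -5.69 and -7.84, with a mean of -6.37 ± 1.28 (SD, n = 3). Replicate 5, at -7.84, lay below every infarcted mouse of that time, and the other sham mice lay above every LAD mouse. LAD mice had values of -6.64, -5.94, -7.05, -6.74 and -6.38, and LAD + Myriocin mice ran from -6.68 to -5.40 with a median of -6.07. The difference from sham was -0.18 in LAD mice (95% interval -1.08 to 0.72; exact permutation test, p = 0.821) and 0.29 in LAD + Myriocin mice (95% interval -0.58 to 1.16; exact permutation test, p = 0.619). Without sham replicate 5 these differences were -0.92 and -0.45, so that the second changed sign with 1 mouse. On raw Ct the LAD difference turned to 1.31 cycles (exact permutation test, p = 0.107). Sham mice differed between 96 and 24 h by -0.47 (95% interval -1.47 to 0.54; exact permutation test, p = 0.6), which turned to 0.92 cycles on raw Ct.

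A07 had the smallest spread between mice of a group. The pooled SD of its relative expression was 0.346, the lowest of the 21 assays, beside 0.354 in A05, 0.498 in A04 and 0.618 in B01 and a panel median of 0.559. Sham mice had A07 values of -4.51, -3.81 and -4.16 at 24 h and of -4.24, -4.00 and -4.18 at 96 h. The means were -4.16 ± 0.35 (SD, n = 3) and -4.14 ± 0.13 (SD, n = 3), a difference of 0.021 (95% interval -0.65 to 0.70; exact permutation test, p = 1). LAD mice ran from -4.83 to -4.00 with a median of -4.41 at 24 h, and had values of -4.49, -4.03, -4.71 and -4.40 at 96 h. Their means were -4.44 ± 0.30 (SD, n = 7) and -4.41 ± 0.28 (SD, n = 4).

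Against sham mice, A07 in LAD mice differed by -0.27 at 24 h (95% interval -0.84 to 0.30; exact permutation test, p = 0.233) and by -0.27 at 96 h (95% interval -0.90 to 0.36; exact permutation test, p = 0.171, smallest possible p = 0.0571). The intervals hold 0 and reach down to -0.84 and -0.90. At 24 h the difference turned on raw Ct to 1.06 cycles (exact permutation test, p = 0.0333) and to 0.23 relative to the mean of all target assays, and at 96 h to 0.13 on the latter scale. On raw Ct the 96 h difference was -1.65 cycles (exact permutation test, p = 0.286).

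LAD + Myriocin mice had A07 values at 24 h of -4.46, -4.39, -4.79, -4.24 and -4.04, with a mean of -4.38 ± 0.28 (SD, n = 5), within the range of the LAD mice of that time. At 96 h their values were -3.59, -2.72, -3.65, -3.96 and -4.09, with a mean of -3.60 ± 0.53 (SD, n = 5). At 96 h, 4 of the 5 lay above all sham mice and 1 lay within the sham range, and replicate 2, at -2.72, stood highest. The difference from sham was -0.22 at 24 h (95% interval -0.82 to 0.38; exact permutation test, p = 0.393) and 0.54 at 96 h (95% interval -0.065 to 1.14; exact permutation test, p = 0.0714). The 24 h value turned to 0.64 cycles and the 96 h value to -0.33 cycles on raw Ct. Without replicate 2 the 96 h difference from sham was 0.32. With sham mice of both times together, it was 0.55 (exact permutation test, p = 0.0303).

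**Figure D3:**
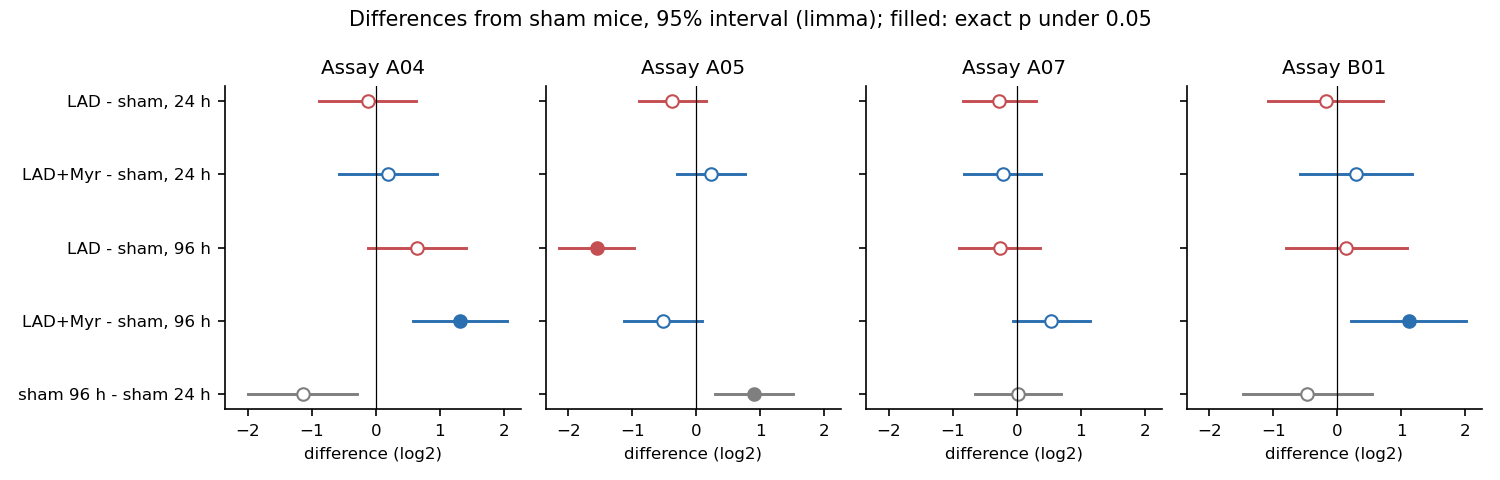
Differences in mean relative expression (log2) of A04, A05, A07 and B01 between LAD and sham mice (red), LAD + Myriocin (LAD+Myr) and sham mice (blue), and sham mice at 96 and 24 h (grey), with 95% intervals from limma as lines. Filled circles mark an unadjusted exact p under 0.05, which holds for A05 in LAD mice at 96 h (-1.56), A04 (1.31) and B01 (1.11) in LAD + Myriocin mice at 96 h, and A05 in sham mice (0.90).

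Counted over the 4 assays, 0 differed between LAD and sham mice at 24 h, where 3 of the 21 assays of the panel (14.3%) passed the unadjusted exact test. At 96 h 1 of the 4, A05, was lower in LAD mice, beside 12 of 21 (57.1%), of which 9 were lower and 3 higher. A07 and B01 had too few mice there for an exact p under 0.05. The median size of the difference was 0.23 at 24 h and 0.46 at 96 h in the 4 assays, and 0.54 and 1.56 over the panel. With LAD + Myriocin, 0 of the 4 assays differed from sham at 24 h, beside 3 of 21 (14.3%). At 96 h 2 of the 4, A04 and B01, were higher, beside 10 of 21 (47.6%), of which 7 were higher and 3 lower. The median size of the LAD + Myriocin difference was 0.83 at 96 h, beside 0.69 over the panel. At 24 h it was 0.23, beside 0.36.

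Between sham mice at 96 and 24 h 1 of the 4 assays, A05, differed, beside 3 of 21 (14.3%), and for A04, A07 and B01 the 3 mice at each time could not give an exact p under 0.1. The change of the difference between LAD and sham mice from 24 to 96 h passed the limma test in 1 of the 4 assays, again A05, beside 12 of 21 (57.1%). In A04 this change was 0.78 (limma, SE 0.526, adjusted p = 0.213), in B01 0.32 (limma, SE 0.634, adjusted p = 0.682) and in A07 0.0073 (limma, SE 0.415, adjusted p = 0.986), and each of these turned negative on raw Ct, to -1.98, -2.27 and -2.71 cycles. After Benjamini-Hochberg adjustment over the 21 assays, the exact test called 0 of the 4 assays and 0 of the panel in each of the 5 comparisons with or among sham mice. At 24 h the unadjusted exact test and the unadjusted limma test both gave 0 of the 4 for LAD and for LAD + Myriocin mice. Over the panel unadjusted limma gave 6 of 21 for LAD and 5 of 21 for LAD + Myriocin mice.

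How far LAD + Myriocin kept the same distance from LAD alone over time depended on the reference. On raw target Ct, A04 went from -0.91 cycles at 24 h to 0.88 at 96 h, a change of 1.79. A07 went from -0.42 to 1.32, a change of 1.74. B01 went from -0.71 to 1.66, a change of 2.37.

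A05 moved the other way on raw target Ct, from -0.24 cycles at 24 h to -2.04 at 96 h, a change of -1.80. The change on raw Ct was thus over 1 cycle in each of the 4 assays. The reference Ct beside these readings had moved between the groups. LAD + Myriocin mice had a later reference Ct than LAD mice at 24 h by 1.22 cycles in A04, 0.84 in A05, 0.47 in A07 and 1.18 in B01. At 96 h the reference Ct differed by -0.21 cycles in A04, -0.52 in A07 and -0.69 in B01, and by 3.07 cycles in A05.

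Relative to the mean Ct of all target assays of the same sample number, A04 had a difference of -0.22 at 24 h and -0.51 at 96 h, and B01 of 0.026 and -0.23. A07 had 0.17 and 0.046. On this scale the changes of A04, A07 and B01 lay between -0.29 and -0.12, under 1 log2 unit as with the reference assay, while the sign at 96 h turned negative in A04 and B01. A05 went from 0.39 to -3.29, a change of -3.69. This scale joins readings of different assays by sample number, and the recurrence of reference readings under other numbers touches it directly.

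**Figure D4:**
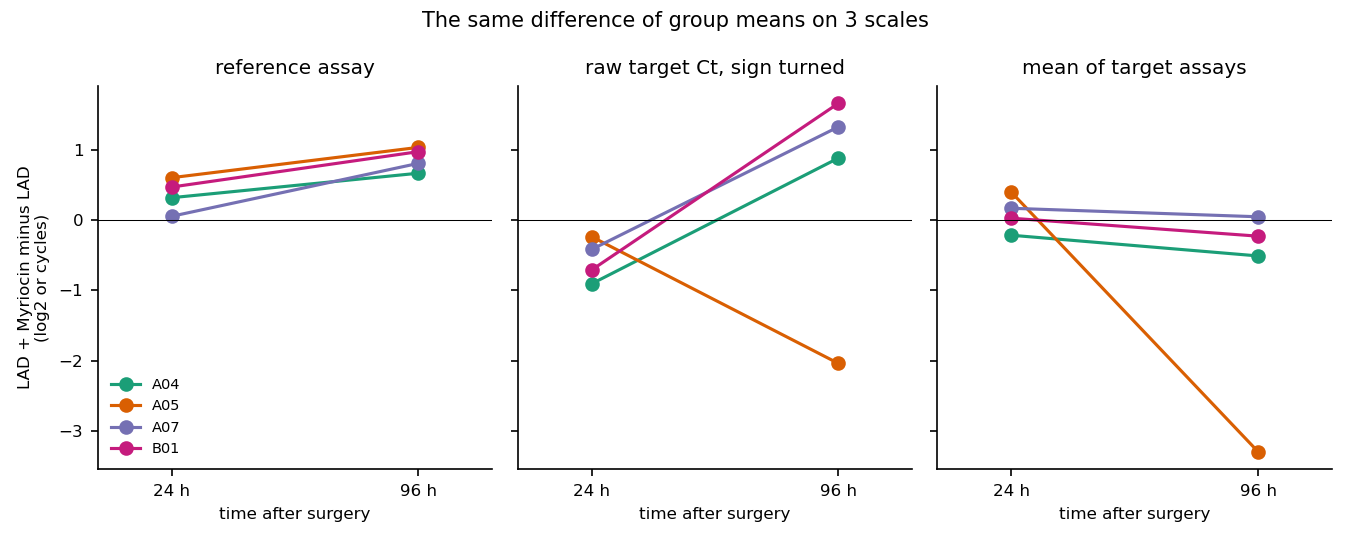
Difference of LAD + Myriocin from LAD mice, 24 and 96 h after surgery, for A04, A05, A07 and B01, relative to the reference assay (left, log2), as raw target Ct with the sign turned (middle, cycles) and relative to the mean Ct of all target assays (right, log2), as differences of group means. With the reference assay each line rises by 0.35 to 0.75, on raw Ct A04, A07 and B01 rise by 1.74 to 2.37 and A05 falls, and relative to the mean of target assays A05 changes by -3.69.

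Within groups, the target Ct followed the reference Ct of the same reading. Across mice of a group, 1 cycle of reference Ct went with 0.823 ± 0.0442 cycles (SE) of target Ct in A04, 0.892 ± 0.0643 in A05, 0.893 ± 0.0539 in A07 and 0.757 ± 0.120 in B01. The median over the panel was 0.892, with a range from 0.365 to 1.22. All 4 slopes were below 1, so that mice with a late reference Ct tended to a higher relative expression. In A04, LAD replicates 2 and 4 at 96 h, with the latest and the earliest reference Ct, lay at the ends of this relation.

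**Figure D5:**
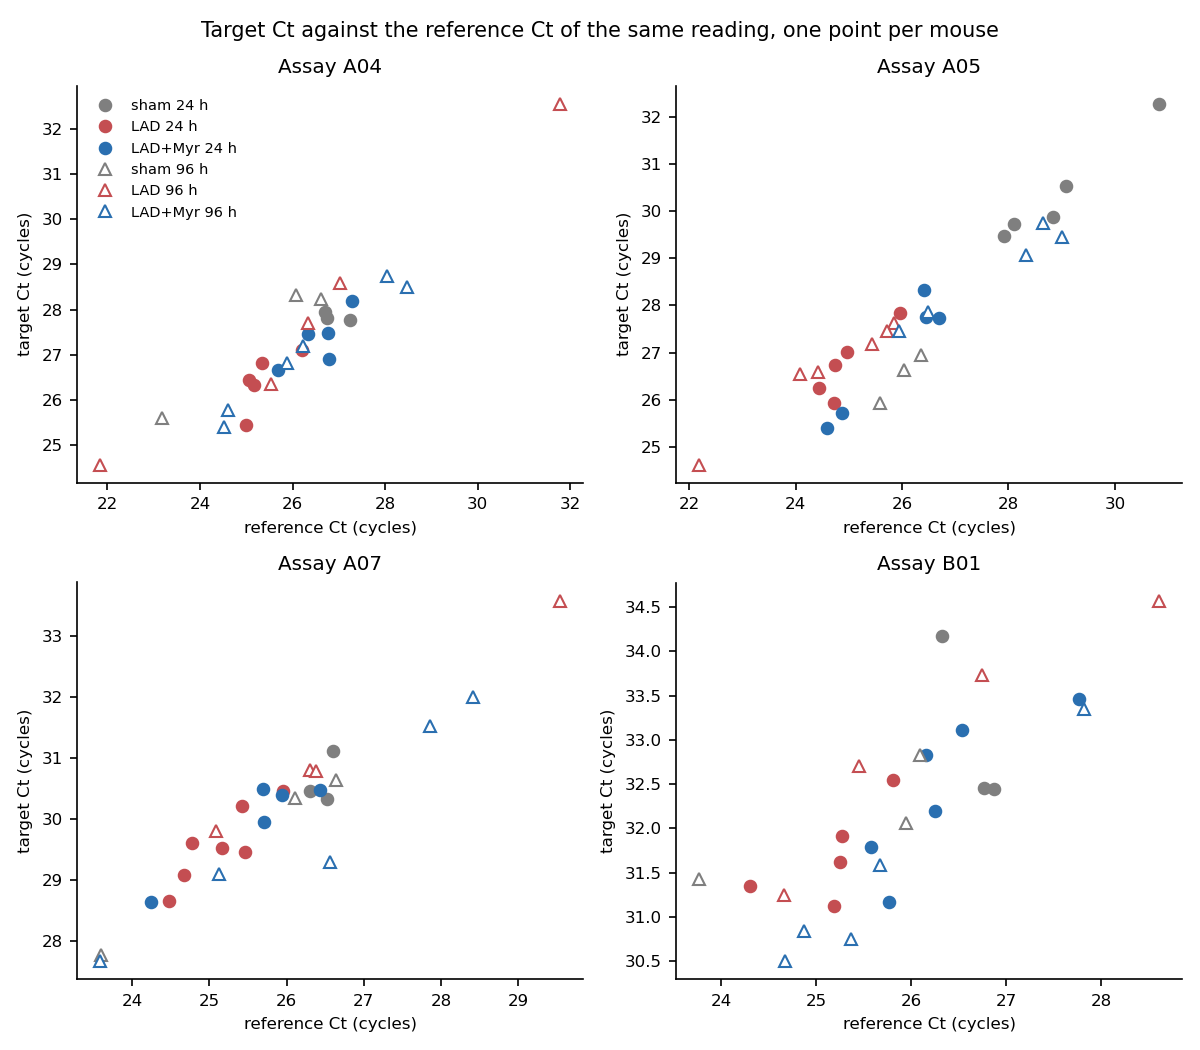
Target Ct (cycles, y axis) against the reference Ct of the same reading (cycles, x axis) in A04, A05, A07 and B01, with filled circles for 24 h, open triangles for 96 h, and sham, LAD and LAD + Myriocin mice in grey, red and blue. The sham mice of A05 at 24 h lie at reference Ct between 27.9 and 30.8, apart from all LAD mice of that assay. LAD + Myriocin mice of A05 at 96 h reach into that range, up to 29.0.

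The patterns of the 4 assays over the 6 groups were not alike. Pearson's r between the group means was 0.83 for A04 and B01, 0.64 for A07 and B01, 0.52 for A05 and A07, 0.18 for A04 and A07, 0.15 for A05 and B01 and -0.31 for A04 and A05. Each r rests on 6 group means of readings that use the same reference assay, and is given as a description. A04 and A05 differed most in sham mice, in which A04 was lower and A05 higher at 96 h than at 24 h. The group means spanned 0.83 log2 units in A07, 1.11 in B01, 1.33 in A04 and 1.56 in A05, beside a panel median of 2.13. A07 and B01 had the smallest spans of the panel, which the choice of the assays in part fixes.

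Of the other 17 target assays, A06 was the most like the mean pattern of the 4 over the 6 group means (r = 0.83), followed by A10 (r = 0.81) and B05 (r = 0.77). For A06 the group means are given as deviations from the mean of its 6 group means. At the first time they were 0.11 in sham, -0.20 in LAD and -0.22 in LAD + Myriocin mice. The sham, LAD and LAD + Myriocin deviations at 96 h were 0.24, -0.78 and 0.86. The span of A06, 1.65, and that of A10, 2.72, exceeded those of A04, A05, A07 and B01, so the likeness is one of shape and not of size. It does not extend to the trait that chose the 4 assays. The difference of LAD + Myriocin from LAD changed between the times by 1.66 in A06 and 2.33 in A10, over the limit, and by 0.62 in B05, under it.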

How the data were processed

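The 4 assays and the tests were chosen with earlier results of these data known. RNA of each heart was reverse transcribed and amplified with SYBR green on a StepOnePlus instrument, and the authors deposited Ct values as read, not normalized. How wells were combined, and so the error of a single Ct, was not given in the sources used here. A second deposited table holds the authors' fold changes to sham and was not used. Groups and replicate numbers came from the labels, and columns were matched to mice by sample number. The target Ct was subtracted from the B10 Ct listed with it.

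Group means were compared by a two-sided exact permutation test (p as 2 times the smaller tail), adjusted by Benjamini-Hochberg over 21 assays. The change of the LAD effect, SE and intervals (95%) came from limma over all mice. Computations were tested on simulated data. Named assays are the 4 chosen ones, those nearest the limit of the choice and those of most similar pattern. Alternatives were the adjustment, limma with or without the replicate number as a block, the linear scale, raw Ct, the mean Ct of target assays, Ct above 35 left out, pooled sham mice, group medians and each mouse left out. Python 3.11.15, NumPy 2.4.6, pandas 2.3.3, matplotlib 3.10.9, R 4.3.3 and limma 3.58.1 were used.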

Additional observations from a re-analysis of the deposited data

Results flagged for a closer look

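In A05, LAD replicate 4 at 24 h stood apart from the other LAD mice of that time. Its relative expression was -1.22, while the others ran from -2.03 to -1.81, and the gap to the nearest of them was 0.731 of the whole range of the group. Of 17 groups of 4 to 7 mice examined this way in the 4 assays, 1 was set apart, and chance alone sets apart about 1 in 20.

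In A05 the difference between LAD and sham mice also changed from 24 to 96 h, by -1.18 log2 units (limma, SE 0.385, adjusted p = 0.0133), from -0.37 to -1.56. It ran between -1.28 and -1.04 when single sham or LAD mice were left out. The same test passed in 12 of the 21 assays (57.1%). Relative to the mean of all target assays the A05 change was -1.22 and did not pass (limma, adjusted p = 0.871). Between the times mean A05 expression changed by 0.90 in sham mice and by -0.28 in LAD mice.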

How the results depend on the processing

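The scale changed the results most. On raw Ct 3 of the 4 assays differed from sham for LAD at 24 h and 0 at 96 h. For LAD + Myriocin 1 differed at 24 h and 1 at 96 h (A05, lower). Over all 21 target assays these raw Ct counts were 9, 5, 2 and 4. Relative to the mean of all target assays the counts of the 4 were 1, 1, 1 and 0, beside 4, 4, 3 and 3 of the 21. For the change of the LAD effect 0 of the 4 passed on that scale, beside 2 of the 21. With pooled sham mice the counts were 1, 1, 0 and 1, beside 9, 16, 8 and 11 of the 21. Benjamini-Hochberg adjustment of the exact test left 0 of the 4 and 0 of the 21 in each. Limma with that adjustment left 1 for LAD + Myriocin at 96 h, beside 4 of the 21, and 0 between sham mice in both. Limma without it gave 2 of the 4 between sham mice, beside 3 of the 21. Differences that changed sign on raw Ct were, for LAD at 24 h, A04 1.42, A05 3.62, A07 1.06 and B01 1.31, for LAD at 96 h, A04 -0.57 and B01 -0.96, for LAD + Myriocin, A07 0.64 at 24 h and -0.33 at 96 h, between sham mice, A04 0.46 and B01 0.92, and for the change of the LAD effect, A04 -1.98, A07 -2.71 and B01 -2.27. Relative to the mean of target assays they were, for LAD at 24 h, A04 0.64, A05 2.83, A07 0.23 and B01 0.57, for LAD at 96 h, A05 1.61 and A07 0.13, for LAD + Myriocin at 24 h, A07 0.39, between sham mice, B01 0.37, and for the change of the LAD effect, A07 -0.094. With pooled sham mice they were, for LAD, A04 0.44 and B01 0.055 at 24 h and B01 -0.093 at 96 h, and for LAD + Myriocin, A05 -0.11 at 24 h and 0.042 at 96 h. Pooling mixes sham mice of both times, whose means differed (96 h minus 24 h) by -1.14 in A04, 0.90 in A05, 0.021 in A07 and -0.47 in B01. On the linear scale the A07 difference between sham mice was -0.0023. The cause of these shifts was not tested.

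LAD + Myriocin minus LAD moved on raw Ct to -0.91 (24 h) with a change of 1.79 in A04, to -0.24, -2.04 and -1.80 (24 h, 96 h, change) in A05, to -0.42, 1.32 and 1.74 in A07, and to -0.71, 1.66 and 2.37 in B01. Relative to the mean of target assays it moved to -0.22, -0.51 and -0.29 in A04, to -3.29 at 96 h with a change of -3.69 in A05, to 0.046 and -0.12 in A07, and to -0.23 and -0.26 in B01. With group medians the change of A05 was 0.056. Leaving out Ct above 35 changed no value of the 4 assays, because none was above it.

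With single mice left out, the count of assays that differed ran from 0 to 1 for LAD at both times, for LAD + Myriocin at 24 h and between sham mice, from 0 to 2 for LAD + Myriocin at 96 h and from 1 to 2 for the change of the LAD effect, in which A04 joined without LAD replicate 4 at 96 h (1.09, limma, adjusted p = 0.0408). Calls against or between sham mice that were lost this way were lost where the mice left allow no exact p under 0.0571. The sign of the difference varied in B01 for LAD at 24 h (-0.92 to 0.22) and at 96 h (-0.27 to 0.50), for LAD + Myriocin at 24 h (-0.45 to 0.69) and for the change of the LAD effect (-0.090 to 1.06), in A04 for LAD at 24 h (-0.29 to 0.086), and in A07 for LAD + Myriocin against LAD at 24 h (-0.034 to 0.15), between sham mice (-0.15 to 0.20) and for the change of the LAD effect (-0.17 to 0.18).

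Whether the replicate numbers pair the mice was not settled. Different mice carry the same number, and same-numbered deviations correlated between -0.52 and 0.31 across assays. These correlations cannot decide it, because a number may not follow the same mouse through the panel. A limma model with this block called 2 of the 4 assays between sham mice, A05 and A04 (-1.27), as limma did without the block. Over all 21 target assays the block model called 4 between sham mice, beside 3 for unadjusted limma without the block. The block changed no call of the 4 assays in any comparison relative to limma without it. With 3 to 7 mice of a group per assay, the number of mice limits all of these comparisons.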

Other observations

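In A05, 4 of 29 target Ct values were listed with at most 2 decimals, in LAD replicate 4 and LAD + Myriocin replicates 1, 2 and 5 at 96 h. This was so for 0 readings of A04, A07 and B01, for 5 of 493 readings of the other target assays and for 5 of 602 reference readings. Without these readings LAD + Myriocin exceeded LAD in A05 by 1.13 at 96 h, against 1.03 with them, in an alternative chosen after seeing the data. The 1.13 rests on the 2 LAD + Myriocin mice left. No call changed, but against the 3 sham mice these 2 allow no exact p under 0.2, so none could arise there. Of the reference readings beside the 4 assays, 1, in A07, recurred in another assay under a sample number of another group.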
